A study of Mus musculus with 99 samples.

Results

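Cux1, Cux2, Rorb, Fezf2, Bcl11b, Tbr1, Foxp2 and Tle4 are transcriptional regulators by which the layers of the cerebral cortex are told apart. They were looked up by Ensembl gene ID, through GENCODE symbols, in every deposited count table. All 8 were found among 55335 gene IDs, and all 8 passed the filter on low counts in every fit. The tables come from bulk RNA sequencing of tissue punches taken at juvenile ages from wild-type mice born to C57BL/6 dams. From embryonic day 0 until weaning, the dams drank either water or water holding 10 µg/ml fentanyl, a synthetic opioid, so the offspring were exposed before and after birth. Punches came from 2 cortical areas, primary somatosensory (S1) and prelimbic (PrL), and from 3 regions below the cortex, which were the nucleus accumbens (NAc), the ventrobasal nuclei of the thalamus (VBT) and, in the midbrain, the ventral tegmental area (VTA). Region, sex and treatment define 20 groups of 5 libraries, except S1 male water with 4, which gives 99 libraries. All groups share the genotype, the dams' strain and a library kit that starts from 10 ng of RNA, and the labels name neither litters nor an exact age. Nothing states that replicates came from separate animals or that regions came from the same animals, so p-values measure only the spread between these samples.

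One VTA male water library had 6333 genes detected and was left out. The other 98 held 23032078 to 52069639 counts (median 36024982) and 24079 to 27347 detected genes. Levels below are in CPM, the gene's counts divided by all counts assigned to genes in the library and scaled to the same total in each. As a check of the labelled regions, the summed CPM of 6 midbrain dopamine genes was 334.8 to 1733 in VTA and at most 2.10 in S1, and the summed CPM of 5 cortical excitatory neuron genes was 1103 to 1582 in S1 and 1269 to 2048 in PrL. That cortical sum was 47.3 to 1309 in NAc, so it did not separate NAc from the cortex in all libraries. The summed CPM of 5 thalamic genes was 305.4 to 977.8 in VBT and 152.9 to 612.4 in VTA, so it did not separate these regions. That of 6 striatal genes was 1096 to 3798 in NAc and at most 713.7 in VBT. PrL male water 3 and PrL female water 5 stood apart, with summed CPM of 414.4 and 214.3 for 6 olfactory bulb genes against a PrL median of 10.1, and of 69.3 and 32.1 for the dopamine genes. PrL female water 5 and PrL female fentanyl 1 had the highest PrL sums of 5 oligodendrocyte genes, 2782 and 2745 CPM against a median of 1000. Punches are bulk tissue, so fewer cells of a type and less RNA per cell cannot be told apart.

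The cerebral cortex is built of layers whose excitatory neurons differ in birth date, inputs and targets, and each layer keeps the expression of a small set of transcription factors after birth. Cux1 and Cux2, CUT homeodomain factors, mark the upper layers that project within the cortex, and Rorb, an orphan nuclear receptor, marks the layer that receives thalamic input and is broad in sensory areas. Fezf2, a zinc-finger repressor, and Bcl11b (Ctip2), also a zinc-finger factor, specify deep neurons that project to the brain stem and spinal cord. Tbr1, a T-box factor, specifies neurons that project from the deepest layer to the thalamus, and Foxp2, a forkhead factor, and Tle4, a Groucho-family corepressor, mark those neurons. Several of these genes also serve outside the cortex, above all Bcl11b and Foxp2 in striatal projection neurons.

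On GRCm38 with GENCODE M21, Cux1 (ENSMUSG00000029705) lies at chr5:136248135-136567490 and Cux2 (ENSMUSG00000042589) at chr5:121856366-122050102, both on the minus strand. Rorb (ENSMUSG00000036192) lies at chr19:18930605-19111196 and Tle4 (ENSMUSG00000024642) at chr19:14448150-14598051, both on the minus strand. Fezf2 (ENSMUSG00000021743) lies at chr14:12342094-12348189 and Bcl11b (ENSMUSG00000048251) at chr12:107910403-108003602, both on the minus strand. Tbr1 (ENSMUSG00000035033) lies at chr2:61802930-61814114 and Foxp2 (ENSMUSG00000029563) at chr6:14901349-15441977, both on the plus strand. Counts cover exons of the whole gene, so the Cux1 values also hold transcripts of the CASP protein made from the same locus. An antisense gene, Gm16599, shares 394 exon bases with Cux1 and had a mean of 0.00032 CPM.

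RefSeq start sites were matched for 7 of the 8 genes, 10 sites in all. The 5 stretches below were chosen from 8 and read from RefSeq sequence of GRCm38.p6. They show both sites of Rorb, which differ in base composition, the Cux2 site that holds ATCGAT, Fezf2, and the first site of Tle4. The first Cux2 site (164 bases), Bcl11b (62) and the second Tle4 site (154) are not printed. Each is the part of the 250 bases before a start site that holds no annotated exon, printed 5′ to 3′ on the gene's own minus strand. Capitals mark matches, on either strand, to the E-box CANNTG, bound by basic helix-loop-helix factors, or to ATCGAT, the homeodomain motif of Cux proteins. These letters are a description and not a site of binding.
Rorb, start site 1, chr19:19111197-19111446: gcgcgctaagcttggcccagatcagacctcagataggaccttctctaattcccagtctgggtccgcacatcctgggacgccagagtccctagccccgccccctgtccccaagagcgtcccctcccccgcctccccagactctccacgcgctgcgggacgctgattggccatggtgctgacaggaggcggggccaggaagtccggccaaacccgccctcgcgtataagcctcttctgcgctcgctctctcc
Rorb, start site 2, chr19:19001118-19001367: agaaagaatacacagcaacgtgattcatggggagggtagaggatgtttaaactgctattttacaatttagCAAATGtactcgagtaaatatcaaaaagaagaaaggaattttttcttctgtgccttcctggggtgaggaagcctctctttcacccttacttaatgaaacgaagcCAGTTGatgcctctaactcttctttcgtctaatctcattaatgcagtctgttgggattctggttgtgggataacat
Cux2, start site 2, chr5:122047892-122048075: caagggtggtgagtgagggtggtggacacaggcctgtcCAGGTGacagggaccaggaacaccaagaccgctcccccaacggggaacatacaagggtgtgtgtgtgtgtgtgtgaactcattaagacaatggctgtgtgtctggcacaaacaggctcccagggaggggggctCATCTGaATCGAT
Fezf2, chr14:12345960-12346115: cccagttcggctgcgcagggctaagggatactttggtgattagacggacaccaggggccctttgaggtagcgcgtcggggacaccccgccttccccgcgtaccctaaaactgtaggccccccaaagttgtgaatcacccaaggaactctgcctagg
Tle4, start site 1, chr19:14598184-14598433: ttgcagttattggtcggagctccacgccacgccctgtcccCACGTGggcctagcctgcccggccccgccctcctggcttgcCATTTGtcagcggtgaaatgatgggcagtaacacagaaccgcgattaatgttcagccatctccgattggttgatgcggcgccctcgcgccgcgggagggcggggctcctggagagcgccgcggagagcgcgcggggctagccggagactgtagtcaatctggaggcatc

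The 2 start sites of Rorb differ in base composition, with 66.0% G and C and 18 CpG pairs in the window before the first and 39.2% and 4 CpG pairs before the second. Cux2 differs likewise, with 80.0% and 40 CpG pairs against 55.2% and 3, beside a median of 52.4% over 32851 RefSeq windows of the same 250 bases. ATCGAT was found in 0.7% of those windows and, among the members, in the second Cux2 window only. CANNTG was found in 66.2% of windows and in 5 of the 10 member windows. The T-box motif AGGTGT and the nuclear receptor motif AGGTCA, in 11.8% and 14% of windows, were in none of the 10, and the forkhead core TGTTTAC, in 3.2%, was in that of Cux1.

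The members fell into different orders over the 5 regions. Fezf2 and Tbr1 separated the regions most, while Cux1 and Tle4 separated them least. In water-exposed offspring, Fezf2 was highest in PrL, at 22.9 to 51.3 CPM (median 39.5, mean 38.3 ± 8.05, SD, n = 10), and lowest in VTA, at 0 to 0.35 CPM (mean 0.16 ± 0.11, n = 9). One VTA library, male water 5, held 0 Fezf2 counts, which allows up to 0.084 CPM (3 counts, counting error only). The PrL mean of Fezf2 was 236.2 times the VTA mean. Tbr1 was highest in S1, at 124 to 158 CPM (median 135, mean 138 ± 11, n = 9), and lowest in VTA, at 0.20 to 0.89 CPM (mean 0.54 ± 0.26), a ratio of 257.3. Among water libraries, no cortical one overlapped any VTA or VBT library for either gene. NAc stood between, at 1.68 to 6.20 CPM for Fezf2 (mean 4.47 ± 1.30, n = 10), below all cortical libraries, and at 25.1 to 114.2 CPM for Tbr1 (mean 65.1 ± 34.6), which overlapped PrL (89.7 CPM at the lowest). VBT had 0.25 ± 0.16 CPM of Fezf2 and 1.56 ± 0.59 of Tbr1.

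The upper-layer genes and Rorb had other orders. Cux1 was highest in S1 (189 ± 23.0 CPM) and lowest in PrL (68.6 ± 18.6), a ratio of 2.75, with NAc (99.7 ± 9.46), VBT (96.8 ± 3.91) and VTA (88.1 ± 5.57) between them. For Cux2, S1 (226 ± 22.9 CPM) was followed by PrL (149 ± 28.6), VBT (134 ± 20.8), VTA (83.7 ± 6.84) and NAc (42.3 ± 7.36). Rorb stood nearly as high in VBT (108 ± 18.5 CPM) as in S1 (123 ± 28), and lower in PrL (47.1 ± 12.7), NAc (31.5 ± 5.68) and VTA (22.7 ± 3.32). Rorb was thus higher in the thalamic nucleus than in the prelimbic cortex, by 1.26 ± 0.14 on the log2 scale (SE, adjusted p = 6.97e-13, edgeR).

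Bcl11b, Foxp2 and Tle4 were highest in NAc, the striatal region. Bcl11b reached 263 to 375 CPM there (median 307, mean 313 ± 35.2), against 74.6 ± 16.9 in PrL, 37.5 ± 6.86 in S1, 18.5 ± 24.0 in VBT and 9.95 ± 1.44 in VTA. Foxp2 had 99.2 ± 35.5 CPM in NAc, 48.4 ± 13.5 in VBT, 39 ± 9.52 in VTA, and 10.8 ± 4.98 and 10.5 ± 3.66 in PrL and S1. Tle4 had 108.1 ± 21 CPM in NAc and 46.3 ± 11.5 in PrL, 43.9 ± 4.42 in VTA, 42.6 ± 5.50 in S1 and 30 ± 4.19 in VBT. For Foxp2, the 2 cortical areas were therefore the lowest of the 5 regions.

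**Figure D1:**
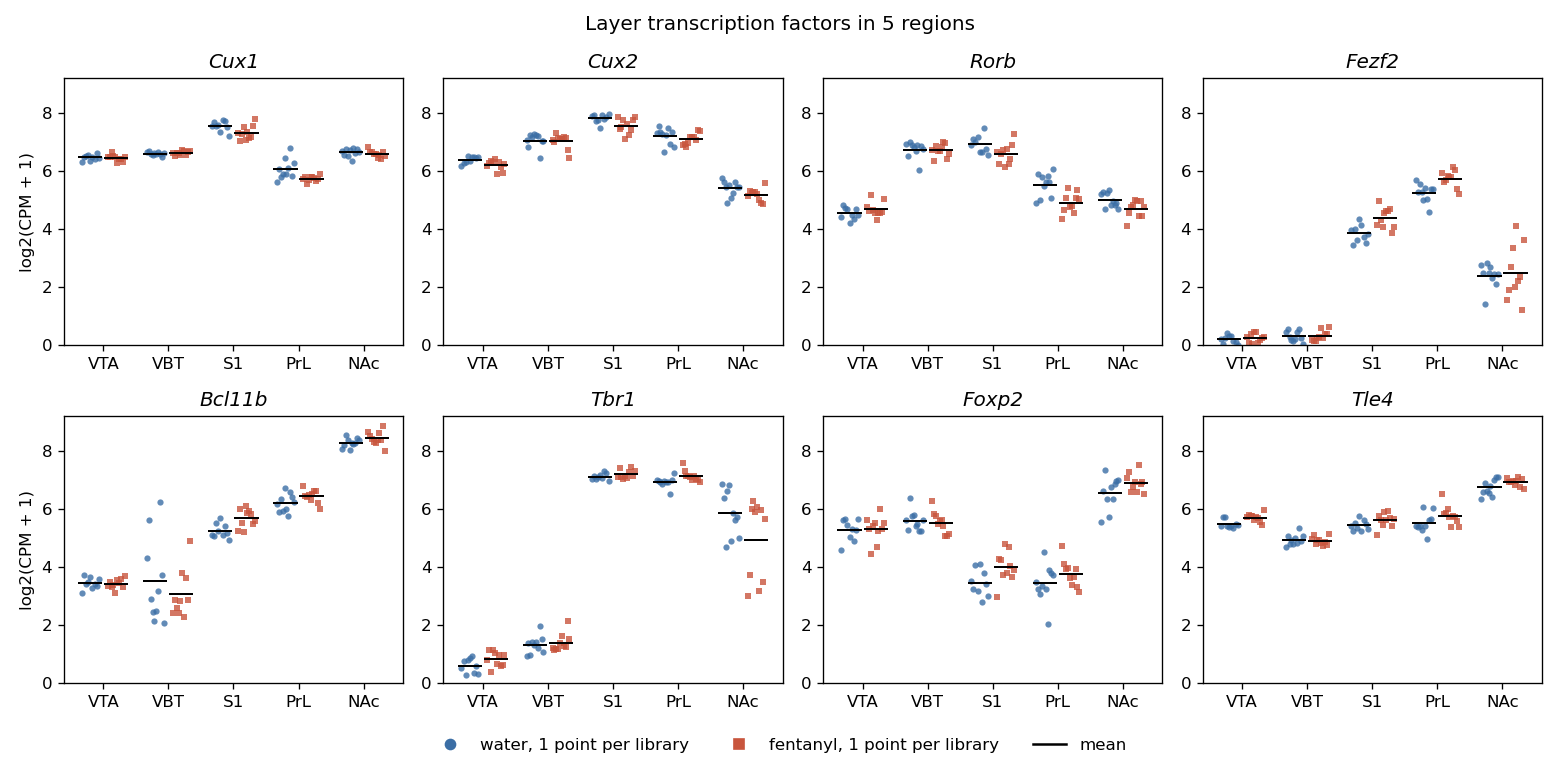
Levels of the 8 genes in 98 libraries. The y axis is log2(CPM + 1), the x axis the region and each point 1 library (circles for water, squares for fentanyl). Each bar is the mean of a region and treatment, with the sexes together. Fezf2 and Tbr1 lie near 0 in VTA and VBT, and Bcl11b is highest in NAc.

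Of the 32 steps between neighbours in these orders, 25 passed the test (edgeR's quasi-likelihood test, Benjamini-Hochberg adjusted p under 0.05), as did 72 of all 80 member-by-region pairs. Regions differ in most genes, so these shares sit beside a high background. Among all genes tested, 53.1% passed between VTA and VBT, 67.1% between VTA and S1, 66.2% between VTA and PrL and 64.6% between VTA and NAc. The share was 67.2% between VBT and S1, 67.7% between VBT and PrL and 67.2% between VBT and NAc. It was 38.1% between S1 and PrL, 53.4% between S1 and NAc and 50.3% between PrL and NAc. The 7 steps that did not pass were NAc to VBT for Cux1, PrL to VBT for Cux2, S1 to VBT for Rorb, VBT to VTA for Fezf2, S1 to PrL for Tbr1, PrL to S1 for Foxp2 and VTA to S1 for Tle4. Their differences ranged from -0.09 ± 0.10 (SE) for Tle4 to 0.83 ± 0.57 for Fezf2 on the log2 scale. The Cux2 step, as VBT minus PrL, did pass with replicate 5 left out of all groups (-0.23), and was 0.0018 without replicate 2. The step from VBT to VTA for Foxp2 (0.48 ± 0.21, adjusted p = 0.0454) was lost when any 1 replicate number was left out of all groups, and that from NAc to VTA for Rorb was, as VTA minus NAc, -0.52 ± 0.15 (adjusted p = 0.00144) and 0.15 with all 99 libraries (adjusted p = 0.583). The step from PrL to VTA for Tle4 (0.21 ± 0.10, adjusted p = 0.0481) was, as VTA minus PrL, -0.22 without replicate 1 (adjusted p = 0.0663), -0.22 without replicate 4 (adjusted p = 0.102) and -0.03 without replicate 5 (adjusted p = 0.777). It was also lost with no filter on low counts (adjusted p = 0.0868) and with all 99 libraries (adjusted p = 0.151). For Bcl11b the step from VBT to VTA (1.0 ± 0.30, adjusted p = 0.00332) was, as VTA minus VBT, -0.69 without replicate 2 (adjusted p = 0.0695), -0.36 without replicate 3 (adjusted p = 0.307) and -0.29 with all 99 libraries (adjusted p = 0.531). The Cux1 step from VTA to PrL (0.25 ± 0.08, adjusted p = 0.00368) was 0.19 without replicate 1 (adjusted p = 0.0551) and 0.17 without replicate 4 (adjusted p = 0.0931).

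Levels of different genes can be compared only per length of exon. The length used was that of all annotated exons of a gene, such as 20024 bases for Cux1 and 3047 for Fezf2. The length of the transcripts expressed was not measured, so the ranks below depend on this choice. On the scale of CPM per kilobase of exon, Tbr1 was the highest of the 8 in S1 (25.1) and PrL (22.3), followed by Cux2 (22.4 and 14.8). In S1 the order then ran Rorb (11.1), Cux1 (9.43), Tle4 (7.47), Bcl11b (4.63), Fezf2 (4.51) and Foxp2 (0.64). In PrL it ran Fezf2 (12.6), Bcl11b (9.19), Tle4 (8.12), Rorb (4.25), Cux1 (3.43) and Foxp2 (0.66). Fezf2 thus stood next to last in S1 and next after Cux2 in PrL. In NAc, Bcl11b led with 38.6, followed by Tle4 with 19.

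Outside the cortex, some ranges were wide. VBT Bcl11b ranged from 3.21 to 74.7 CPM (median 7.23) in water, and its highest library, VBT male water 3, also had the highest VBT sum of 6 striatal genes, 713.7 CPM against a region median of 115.4. VBT female water 2 was next, at 48.5 CPM. In NAc, Tbr1 was spread over all 20 libraries, from 7.03 to 114.2 CPM (median 54.9, SD 33.1), as was the sum of cortical excitatory genes, from 47.3 to 1309. NAc female water 1 was highest in that sum and NAc female fentanyl 1 lowest. The part of these genes in the Bcl11b and Tbr1 values was not tested.

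The 2 cortical areas differed in 5 of the 8 members. In water-exposed offspring, Cux1, Cux2 and Rorb were higher in S1, and Fezf2 and Bcl11b were higher in PrL, while Tbr1, Foxp2 and Tle4 did not pass the test. S1 is a primary sensory area with a broad layer 4, and PrL, in the rodent prefrontal cortex, lacks a distinct one. Of all 20507 genes tested, 42.5% passed, 19.9% higher in S1 and 22.6% higher in PrL, beside which 5 of 8 members stands. The median log2 difference of the members was 0.03 beside 0.00 over all genes.

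Cux1 was at 148 to 218 CPM in S1 (median 189) and 48.3 to 110.8 in PrL (median 63.0), with no overlap. Its difference, S1 minus PrL, was 1.45 ± 0.11 on the log2 scale (SE, n = 9 and 10 libraries, adjusted p = 1.49e-12, edgeR). Cux2 was at 178 to 250.4 CPM in S1 (median 232) and 99.2 to 187 in PrL (median 157). Of the 9 S1 libraries, 8 lay above all PrL libraries for Cux2, and the difference was 0.58 ± 0.11 (adjusted p = 4.43e-05). Rorb was at 92.4 to 181 CPM in S1 (median 119) and 29.0 to 66.7 in PrL (median 48.9). The 2 areas did not overlap for Rorb either, and the difference was 1.37 ± 0.17 (adjusted p = 1.05e-07).

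Among the subcerebral factors, Fezf2 was at 10.1 to 19.5 CPM in S1 (median 13.3) and 22.9 to 51.3 in PrL. Each S1 library lay below each PrL library, and the difference was -1.51 ± 0.16 (adjusted p = 4.37e-09). Bcl11b was at 29.2 to 50.8 CPM in S1 (median 35.0) and 53.5 to 105.6 in PrL (median 72.4), again without overlap, with a difference of -1.02 ± 0.13 (adjusted p = 1.53e-07). The ranges of 4 of the 8 members did not overlap between the areas, against 7.14% of all genes tested.

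The factors of corticothalamic neurons overlapped. Tbr1 was at 124 to 158 CPM in S1 and 89.7 to 149 in PrL (difference 0.15 ± 0.07, adjusted p = 0.0987). It passed the test without PrL male water 5 (0.195, adjusted p = 0.028), with the share of reads outside exons in the model (0.27, adjusted p = 0.00669) and with offsets for GC content (0.21, adjusted p = 0.0244). Foxp2 was at 6.01 to 16.0 CPM in S1 and 3.11 to 21.9 in PrL (-0.09 ± 0.25, adjusted p = 0.808). Tle4 was at 36.6 to 53.1 CPM in S1 and 30.6 to 66.8 in PrL (-0.14 ± 0.12, adjusted p = 0.378). The highest values of Foxp2 and Tle4 in PrL water came from the same library, PrL female water 5.

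The fentanyl-exposed groups gave the same comparison in libraries that the water contrast does not use, within the same fit of S1 and PrL. The differences were 1.57 ± 0.11 for Cux1 (adjusted p = 1.39e-13), 0.44 ± 0.10 for Cux2 (adjusted p = 0.000789) and 1.69 ± 0.17 for Rorb (adjusted p = 1.4e-09). They were -1.42 ± 0.15 for Fezf2 (adjusted p = 4.24e-09) and -0.80 ± 0.13 for Bcl11b (adjusted p = 3.4e-06), while Tbr1 (0.02), Foxp2 (0.25) and Tle4 (-0.21) did not pass. Ranges did not overlap for Cux1, Rorb and Fezf2, 3 of 8 members against 9.21% of all genes. For Bcl11b, 8 of the 10 S1 fentanyl libraries lay below all PrL libraries. The background was 44.1% of genes, 23.0% higher in S1 and 21.1% higher in PrL. None of the 8 differed in its S1 minus PrL difference between fentanyl and water by the test of that difference (adjusted p under 0.05 in 0.00488% of genes, unadjusted p under 0.05 in 8.92% of genes and 0 of 8 members).

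**Figure D2:**
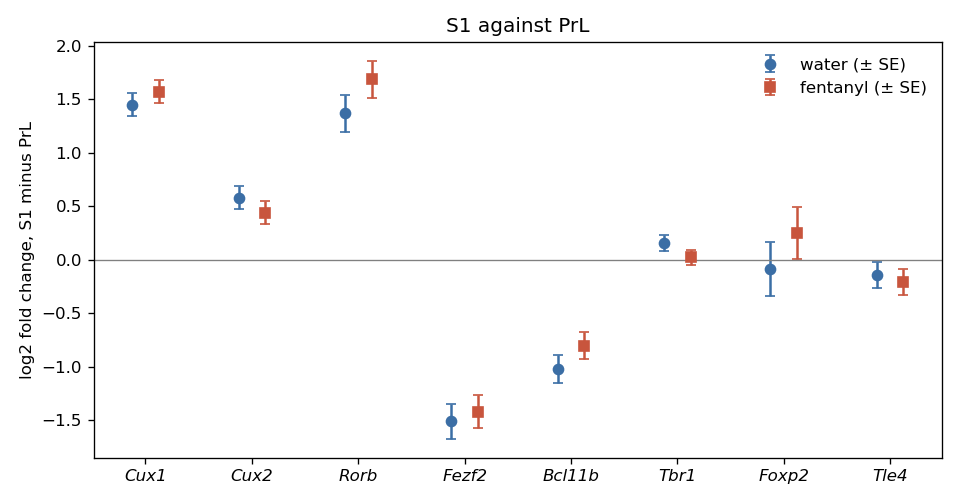
Difference between S1 and PrL for each gene. The y axis is the log2 fold change from edgeR, S1 minus PrL, averaged over the sexes, with bars of 1 SE, and symbols separate water from fentanyl; Cux1 and Rorb lie above 1 and Fezf2 below -1 in both.

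Genes that mark the same layers were counted beside the members, where 19.9% of all genes were higher in S1 and 22.6% in PrL. Of 5 layer 4 genes, 5 were higher in S1 (median log2 difference 1.30), among them Rspo1, a secreted Wnt enhancer (12.1 ± 3.48 against 1.83 ± 0.63 CPM), and Unc5d, a netrin receptor (log2 difference 1.30 ± 0.12). Of 9 upper-layer genes, 6 were higher in S1 and 0 in PrL (median 0.37), led by Lamp5, a lysosome-associated membrane protein (0.86 ± 0.12), and Pou3f2, a POU-domain factor (0.72 ± 0.11). Of 12 layer 5 genes, 9 were higher in PrL and 0 in S1 (median -0.69). Crym, a thyroid hormone-binding protein, was at 8.52 ± 3.46 CPM in S1 and 86.1 ± 17.4 in PrL, and Ldb2, a LIM-domain-binding cofactor, at 25.3 ± 7.29 and 77.9 ± 10.9.

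The layer 6 and 6b list held genes of both directions. Of its 10 genes, 2 were higher in S1, near the 19.9% of all genes, and 6 in PrL, against 22.6% of all genes (median -0.66). Nr4a2, an orphan nuclear receptor that marks the subplate remnant, was higher in S1 (45.4 ± 12.7 against 8.37 ± 3.98 CPM), as was Cplx3, a complexin of the same cells (9.51 ± 2.42 against 4.81 ± 0.66). Zfpm2, a GATA cofactor (-0.82 ± 0.16), and Ntsr1, the neurotensin receptor of corticothalamic neurons (-0.94 ± 0.21), were higher in PrL. In fentanyl-exposed offspring the counts higher in S1 and in PrL were 5 and 0 for layer 4, 4 and 0 for upper layers, 0 and 8 for layer 5, and 2 and 3 for layer 6 and 6b. Of all genes, 23.0% were higher in S1 and 21.1% in PrL there.

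Of 9 areal patterning genes, 2 were higher in S1 and 3 in PrL in water, near the 19.9% and 22.6% of all genes. Nr2f1 (COUP-TFI), which promotes caudal sensory identity, was higher in S1 by 0.54 ± 0.08 and Id2, a helix-loop-helix inhibitor, by 0.56 ± 0.07, while Lmo4, a LIM-only factor, was lower in S1 by a log2 difference of -1.01 ± 0.10. Of 14 paralogues and cofactors of the members, 12 were tested, 4 were higher in S1 and 4 in PrL. Rora, the paralogue of Rorb, was higher in S1 by 1.17 ± 0.12 and Foxp1, a paralogue of Foxp2, by 0.45 ± 0.06, while Foxp4 had a difference of -0.44 ± 0.08. Sp8 (-2.77 ± 0.61) and Eomes, the paralogue of Tbr1 (-6.99 ± 1.24), are also on the olfactory bulb list. Without PrL male water 3 and PrL female water 5 the differences were -0.59 for Sp8 (adjusted p = 0.0356) and -3.26 for Eomes (adjusted p = 0.000111). The water counts given for the layer, patterning and paralogue lists include these 2 libraries. In fentanyl, 3 patterning genes were higher in S1 and 1 in PrL, and 6 and 2 of the paralogues.

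Other cell types differed between the areas as well. All 5 oligodendrocyte genes were higher in S1 (median 1.46), where their summed CPM was 2505 to 5754 in water against 659.7 to 2782 in PrL, and 4 of 4 endothelial genes were higher in S1. The sum of the 6 striatal genes was 165.6 to 223.2 CPM in S1 water and 84.7 to 99.1 in PrL water, with no overlap, although 2 of the 6 were higher in S1 and 2 in PrL. Of the other lists, 5 of 6 olfactory bulb genes and 3 of 6 midbrain dopamine genes were tested, and all of these were lower in S1 (medians -3.49 and -2.49), with PrL male water 3 highest in both sums. Their part in the member differences was not tested, and without PrL male water 3 and PrL female water 5 the members gave 1.60 for Cux1, 0.48 for Cux2, -0.91 for Bcl11b and 0.16 for Foxp2.

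Within each area the members also varied together from punch to punch. After subtraction of the mean of each sex and treatment group, all 28 pairs of members were correlated on log2(CPM + 1) over 19 libraries in S1 and 20 in PrL, which makes 56 pairs in 1 family. By a two-sided permutation test of 100000 draws within groups with Benjamini-Hochberg adjustment of Pearson's r, 13 pairs passed in S1 (7 positive and 6 negative) and 8 in PrL (4 and 4). The share among pairs of other genes was not computed, so these counts do not set the members apart from other genes. Libraries of an area share the punch site and the total over which CPM is taken, and the TMM-scaled alternative gave 12 and 8 pairs.

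The corticothalamic markers and Bcl11b varied together. Foxp2 and Tle4 had the highest r, 0.957 in S1 (rho 0.953, permutation p = 1e-05, the smallest these draws can give, adjusted 0.00028) and 0.890 in PrL (rho 0.835, p = 0.00013, adjusted 0.00104). Bcl11b and Tle4 gave 0.876 in S1 (rho 0.900, p = 2e-05, adjusted 0.00028) and 0.754 in PrL (rho 0.805, p = 0.00091, adjusted 0.00425), and Bcl11b and Foxp2 gave 0.821 (rho 0.816, p = 0.00023, adjusted 0.00161) and 0.828 (rho 0.805, p = 8e-05, adjusted 0.000747). In S1 the 2 libraries with the most Foxp2, female fentanyl 5 and male fentanyl 2 (26.6 and 24.8 CPM), also had the highest sums of layer 6 and 6b genes (386.2 and 356.1 CPM) and of oligodendrocyte genes (12960 and 7234 CPM). The part of these sums in the correlations was not tested. Without the 2 libraries farthest from the median of the first gene, the 3 pairs gave 0.923, 0.843 and 0.791 in S1 and 0.818, 0.71 and 0.751 in PrL.

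Cux2 moved the opposite way. Cux2 and Bcl11b gave -0.872 in S1 (rho -0.895, p = 1e-05, adjusted 0.00028) and -0.728 in PrL (rho -0.695, p = 0.0028, adjusted 0.0098). Cux2 and Foxp2 gave -0.847 (rho -0.816, p = 2e-05, adjusted 0.00028) and -0.767 (rho -0.693, p = 0.00055, adjusted 0.00308), and Cux2 and Tle4 gave -0.869 (rho -0.867, p = 3e-05, adjusted 0.000336) and -0.732 (rho -0.586, p = 0.00189, adjusted 0.00756). Without the 2 farthest libraries these were -0.856, -0.771 and -0.824 in S1 and -0.703, -0.678 and -0.517 in PrL, and the last no longer passed (adjusted 0.0785), so that its call, though not its sign, rests on those 2 libraries.

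Cux1 and Fezf2 were the seventh pair that passed in both areas, with -0.634 in S1 (rho -0.637, p = 0.00915, adjusted 0.0256, -0.680 without 2 libraries) and -0.71 in PrL (rho -0.612, p = 0.00088, adjusted 0.00425, -0.514 without 2). All 7 had the same sign in both areas, as had 22 of the 28 pairs. Of the pairs that passed in S1 only, Cux1 and Rorb gave 0.830 (rho 0.849, p = 0.00037, adjusted 0.0023, 0.774 without 2) and Fezf2 and Bcl11b gave 0.715 (rho 0.753, p = 0.00181, adjusted 0.00756, 0.644 without 2). In PrL they gave 0.262 (rho 0.224, p = 0.332, adjusted 0.433, 0.416 without 2) and 0.141 (rho 0.224, p = 0.609, adjusted 0.685, 0.236 without 2), and the difference between areas was not tested. In PrL, Fezf2 and Tbr1 gave 0.582 (rho 0.540, p = 0.00225, adjusted 0.0084), which fell to 0.376 without 2 libraries (adjusted 0.0699) and rests on them. Cux1 and Cux2, which are paralogues, gave 0.658 in S1 (rho 0.607, p = 0.00451, adjusted 0.0142, 0.748 without 2) and -0.516 in PrL (rho -0.256, p = 0.0939, adjusted 0.164, -0.086 without 2).

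**Figure D3:**
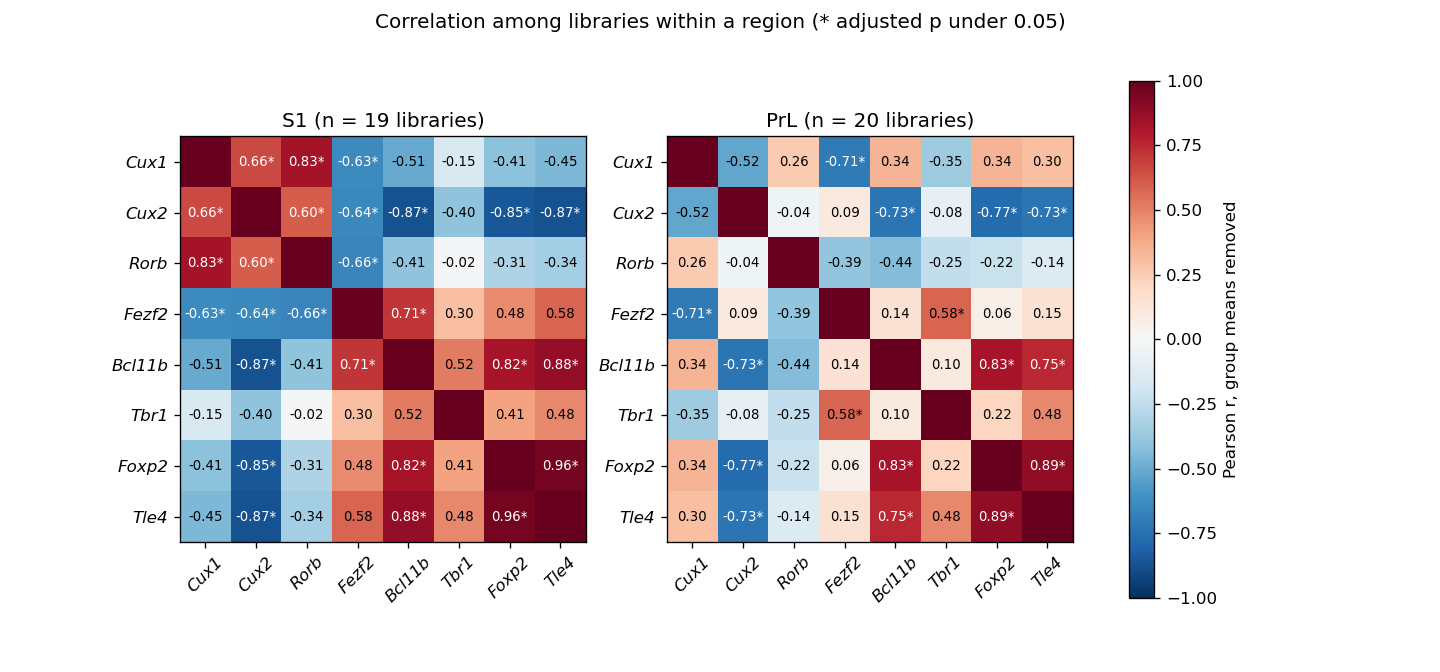
Pearson r between the 8 genes over the 19 S1 and the 20 PrL libraries, group means removed. Colour gives r from -1 to 1 and an asterisk an adjusted permutation p under 0.05; Bcl11b, Foxp2 and Tle4 form a positive block that is negative with Cux2 in both areas.

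Fentanyl exposure was compared with water in each region, for the average of the sexes and for each sex. In the cortex, no member passed the adjusted test by edgeR, while DESeq2 called 2 members in S1 and 3 in PrL (given below). In S1 the differences of the 8 ran from -0.31 for Rorb to 0.65 for Foxp2, and in PrL from -0.63 for Rorb to 0.52 for Fezf2. Among all genes, 1.03% passed in S1 and 0.697% in PrL by edgeR. An unadjusted p under 0.05 was reached by 5 of 8 members in S1 (3 above and 2 below 0) against 15.8% of genes, and by 5 of 8 in PrL (3 above and 2 below) against 19.1%. Several members vary together within each area, as given above. These counts, and those by sex below, are therefore not counts of independent results.

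Fezf2 in S1 was at 10.1 to 19.5 CPM in water (median 13.3) and 13.6 to 30.3 in fentanyl (median 20.9). By library, females had 14.7, 10.1, 15.3, 11.5 and 19.5 CPM in water and 16.6, 30.3, 19.1, 16.0 and 22.7 in fentanyl. Males had 16.6, 12.4, 10.4 and 13.3 CPM in water and 23.9, 23.7, 25.3, 13.6 and 15.9 in fentanyl. The groups overlapped in both sexes, and the average difference was 0.61 ± 0.16 on the log2 scale (SE, adjusted p = 0.0696, edgeR). Bcl11b in S1 was at 29.2 to 50.8 CPM in water and 35.8 to 68.4 in fentanyl (0.47 ± 0.13, adjusted p = 0.0852). In males all 5 fentanyl libraries (56.8, 60.6, 55.3, 43.6 and 47.4 CPM) lay above all 4 water libraries (33.1, 41.3, 35.0 and 29.2), a separation that 1.72% of all genes showed in either direction. The male difference of Bcl11b was 0.62 ± 0.19 (adjusted p = 0.617) and the female one 0.32 ± 0.18 (adjusted p = 0.443).

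The other S1 members had adjusted p-values of 0.202 to 0.482. Foxp2 was at 6.01 to 16.0 CPM in water and 6.77 to 26.6 in fentanyl (0.65 ± 0.24, adjusted p = 0.202), and Tle4 at 36.6 to 53.1 and 33.1 to 59.6 (0.20 ± 0.10, adjusted p = 0.321). Cux1 was at 148 to 218 and 130.1 to 222 CPM (-0.22 ± 0.10, adjusted p = 0.278), Cux2 at 178 to 250.4 and 137 to 234 (-0.23 ± 0.10, adjusted p = 0.257) and Rorb at 92.4 to 181 and 70.2 to 154 (-0.31 ± 0.16, adjusted p = 0.347). The ranges of all of these overlapped between the treatments.

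In PrL, Fezf2 was at 22.9 to 51.3 CPM in water (median 39.5) and 35.8 to 69.9 in fentanyl (median 54.7). By library, females had 51.3, 38.2, 46.2, 37.9 and 31.4 CPM in water and 60.7, 48.5, 50.9, 56 and 55.1 in fentanyl. Males had 41.7, 31.6, 22.9, 40.7 and 40.8 CPM in water and 54.3, 69.9, 65.1, 41.1 and 35.8 in fentanyl. The groups overlapped, and the difference was 0.52 ± 0.14 (adjusted p = 0.0787). Rorb was at 29.0 to 66.7 CPM in water (median 48.9) and 19.3 to 42.0 in fentanyl (median 29.2), a difference of -0.63 ± 0.17 (adjusted p = 0.0834). Cux1 was at 48.3 to 110.8 CPM in water and 46.8 to 58.9 in fentanyl (-0.34 ± 0.11, adjusted p = 0.105), and the difference was -0.20 without PrL female water 5 and PrL male water 3.

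Bcl11b in PrL was at 53.5 to 105.6 CPM in water and 62.4 to 110.5 in fentanyl (0.25 ± 0.12, adjusted p = 0.253), Cux2 at 99.2 to 187 and 114 to 170.2 (-0.10 ± 0.10, adjusted p = 0.658) and Foxp2 at 3.11 to 21.9 and 7.72 to 25.6 (0.31 ± 0.24, adjusted p = 0.522), all with overlapping ranges.

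Tbr1 in PrL separated in females. The 5 fentanyl libraries were at 194, 158, 139, 140.2 and 136 CPM, all above the 5 water libraries at 127, 125, 122, 117 and 125, and the difference was 0.35 ± 0.11 (adjusted p = 0.336). Such a separation occurred in 2.18% of all genes in PrL females. In males the difference of Tbr1 was 0.10 ± 0.11 (adjusted p = 0.744), and the difference between the sexes did not pass (-0.25 ± 0.16, adjusted p = 0.999). Tle4 differed by 0.51 ± 0.19 in females (adjusted p = 0.413) and 0.02 ± 0.19 in males (adjusted p = 0.981), where leaving out single libraries turned its sign.

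**Figure D4:**
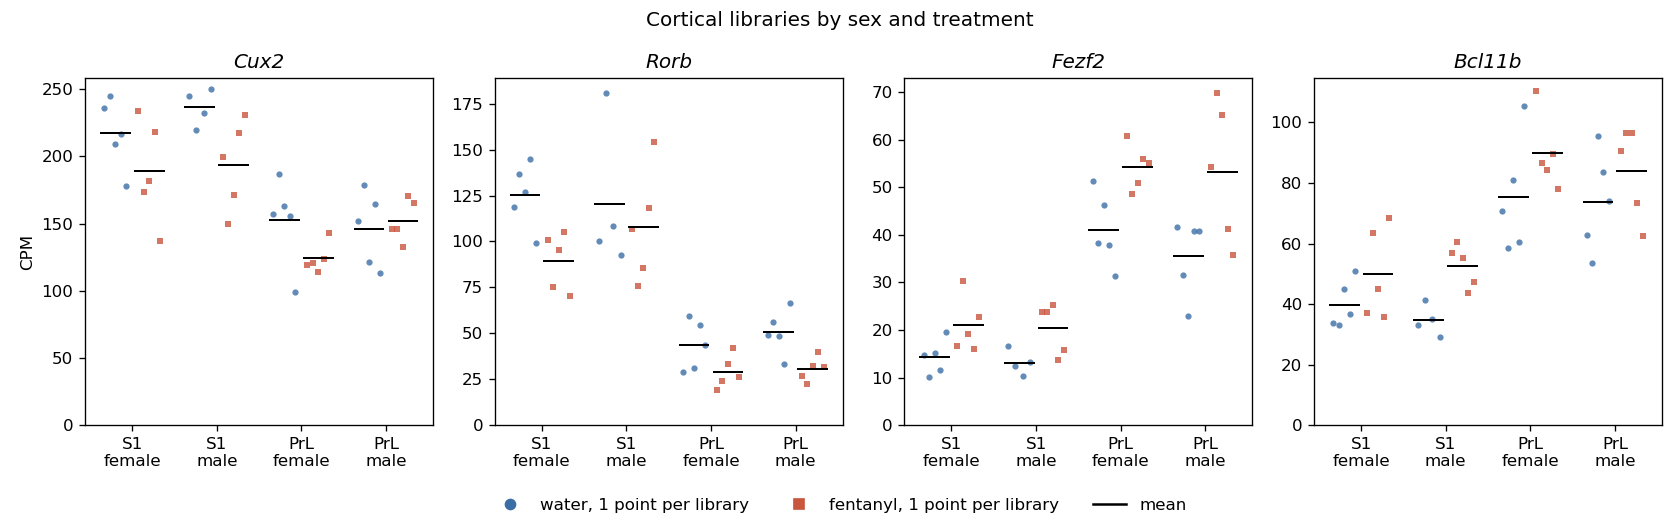
CPM of Cux2, Rorb, Fezf2 and Bcl11b in each cortical library by area, sex and treatment. Each point is 1 library and each bar the mean of its group, and the y axis starts at 0; the fentanyl groups of Fezf2 overlap the water groups in both areas and sexes.

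By sex, the unadjusted count in S1 was 3 of 8 in females (background 13.9%) and 3 of 8 in males (7.15%), and in PrL 4 of 8 in females (9.53%) and 3 of 8 in males (12%). Adjusted, 0.142% of genes passed in S1 females, 0% in S1 males, 0.0210% in PrL females and 0% in PrL males. The tests between the sexes called 0 members and 0% of genes, with 4.14% of genes under an unadjusted 0.05 in S1 and 2.59% in PrL. Ranges separated for none of the 8 in S1 females (background 4.22%) and PrL males (2.0%).

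DESeq2's Wald test on the same counts did pass some members. It called Fezf2 (0.60, adjusted p = 0.00311) and Bcl11b (0.47, adjusted p = 0.0077) in S1, where it called 3.27% of genes, and Cux1 (-0.34, adjusted p = 0.0345), Rorb (-0.63, adjusted p = 0.0177) and Fezf2 (0.52, adjusted p = 0.00701) in PrL, where it called 4.08%. PrL male water 3 and PrL female water 5 had the highest Cux1 in PrL water (110.8 and 86.3 CPM) and the lowest Fezf2 (22.9 and 31.4). Their Rorb values, 48.7 and 43.6 CPM, lay within the range of the other PrL water libraries. DESeq2 was not run without these 2 libraries. In edgeR, Fezf2 passed in S1 without female water 5 (0.68, adjusted p = 0.049), male fentanyl 4 (0.67, adjusted p = 0.0404) or male fentanyl 5 (0.64, adjusted p = 0.046), and in PrL with GC offsets (0.53, adjusted p = 0.049). Rorb passed in PrL without female water 1 (-0.69, adjusted p = 0.049).

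Layer marker lists and library measures moved beside these values. In S1, all 10 layer 6 and 6b genes lay above 0 in fentanyl minus water (median 0.45, all genes 0.00), 11 of 12 layer 5 genes lay above 0 (median 0.16), and 8 of 9 upper-layer and 4 of 5 layer 4 genes lay below (medians -0.11 and -0.22), with 0 genes of these lists passing. The summed CPM of the layer 6 and 6b genes was 142 to 225 in S1 water (median 172) and 138 to 386 in S1 fentanyl (median 247), and that of 5 oligodendrocyte genes 2505 to 5754 (median 3402) and 2174 to 12960 (median 3622). In PrL, 8 of 10 layer 6 and 6b and 10 of 12 layer 5 genes lay above 0 (medians 0.31 and 0.17) and 4 of 5 layer 4 genes below (median -0.28). The percent of reads outside exons was 12.1 to 14.5 in PrL water (median 13.8) and 9.99 to 12.9 in PrL fentanyl (median 11.3). With this percent in the model the PrL differences were 0.26 for Fezf2 (adjusted p = 0.854), -0.43 for Rorb and -0.23 for Cux1. The PrL average of Tbr1 moved from 0.22 ± 0.08 (SE, adjusted p = 0.14, edgeR) to -0.03. The part of these lists and measures in the member differences was not tested.

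By edgeR, Cux2 and Tle4 passed in VTA, in males and on average, and no member did with all 20 VTA libraries. Cux2 in VTA males was at 88.6, 88.1, 87.9 and 89.7 CPM in the 4 water libraries and at 58.2, 78.1, 69.4, 61.1 and 75.8 in the 5 fentanyl libraries, all of them below water. It fell by 0.34 on the log2 scale (SE 0.07, adjusted p = 0.00393, edgeR). In females Cux2 was at 71.4 to 90.8 CPM in water and 72.4 to 84.7 in fentanyl, and the groups overlapped (-0.03 ± 0.07, adjusted p = 0.862). Averaged over the sexes it fell by 0.19 (SE 0.05, adjusted p = 0.0106). The test between the sexes gave -0.30 (adjusted p = 0.42) and did not pass. The summed CPM of the 6 dopamine genes in VTA males was 864.3 to 1499 in water and 334.8 to 1240 in fentanyl. It was lowest in male fentanyl 4 and 1 (334.8 and 469.2), which also had the lowest Cux2. The sum of the 5 thalamic genes was 153 to 418.5 in male water and 152.9 to 612.4 in male fentanyl. Their part in the VTA differences was not tested.

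Tle4 rose in VTA by edgeR. Males had 41.7, 39.8, 43.6 and 42.7 CPM in water and 51.4, 51.1, 46.1, 43.0 and 61.2 in fentanyl, of which 4 libraries lay above all water libraries. The male difference was 0.31 ± 0.08 (SE, adjusted p = 0.0122) and the average 0.25 ± 0.06 (adjusted p = 0.0043). In females, with 42.1, 51.5, 51.4, 42.1 and 40.3 CPM in water and 51.6, 54.7, 53.8, 53.1 and 48.7 in fentanyl, it was 0.19 (adjusted p = 0.333). The other 6 members had average differences from -0.01 to 0.59 in VTA, the last for Tbr1 at 0.20 to 1.21 CPM over all VTA libraries (adjusted p = 0.169). These calls stand among many: 23.1% of all genes passed in the VTA average and 22.0% in VTA males, and 22.4% of genes separated completely in VTA males, so 2 of 8 members is near the background. With offsets for GC content Cux2 was -0.11 in males (adjusted p = 0.198) and -0.04 on average (adjusted p = 0.636), and Tle4 was 0.25 in males (adjusted p = 0.0686). In VTA females 0% of genes passed, with 12.7% under an unadjusted 0.05 and 1.61% separated, and in the test between the sexes 0% passed, with 11.4% under an unadjusted 0.05.

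VBT and NAc gave no calls among the members. In VBT the average differences ran from -1.17 for Bcl11b, whose water libraries ranged most widely, to 0.08. There 0% of genes passed in any contrast, with 8.49% (average), 7.86% (females), 8.70% (males) and 8.03% (between the sexes) under an unadjusted 0.05 and 0 of 8 members in each. In NAc they ran from -0.56 ± 0.47 for Tbr1 to 0.37 ± 0.38 for Fezf2. Among NAc females, Rorb had a difference of -0.51 (adjusted p = 0.544) and Tle4 of 0.33 (adjusted p = 0.544). The summed CPM of the cortical excitatory genes in NAc females was 232.1 to 1309 in water and 47.3 to 763.9 in fentanyl. That of the striatal genes was 1096 to 3014 in water and 2198 to 3251 in fentanyl. The part of these sums in the NAc differences was not tested. Unadjusted counts in NAc were 3 of 8 on average (background 12%), 2 of 8 in females (9.03%), 0 of 8 in males (17.6%) and 0 of 8 between the sexes (15.2%). Adjusted, 0.662% of genes passed in NAc males and 0% in the other NAc contrasts. No member separated in VBT females (background 2.06%), VBT males (0.967%), NAc females (0.755%), NAc males (3.50%) or VTA females. Over all 5 regions, 3 of 80 sets of member, region and sex separated fentanyl from water, those of Cux2, Bcl11b and Tbr1 given above. The shares of all genes in the 10 region and sex sets were 0.755 to 22.4%, so this count is no result about the members.

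**Figure D5:**
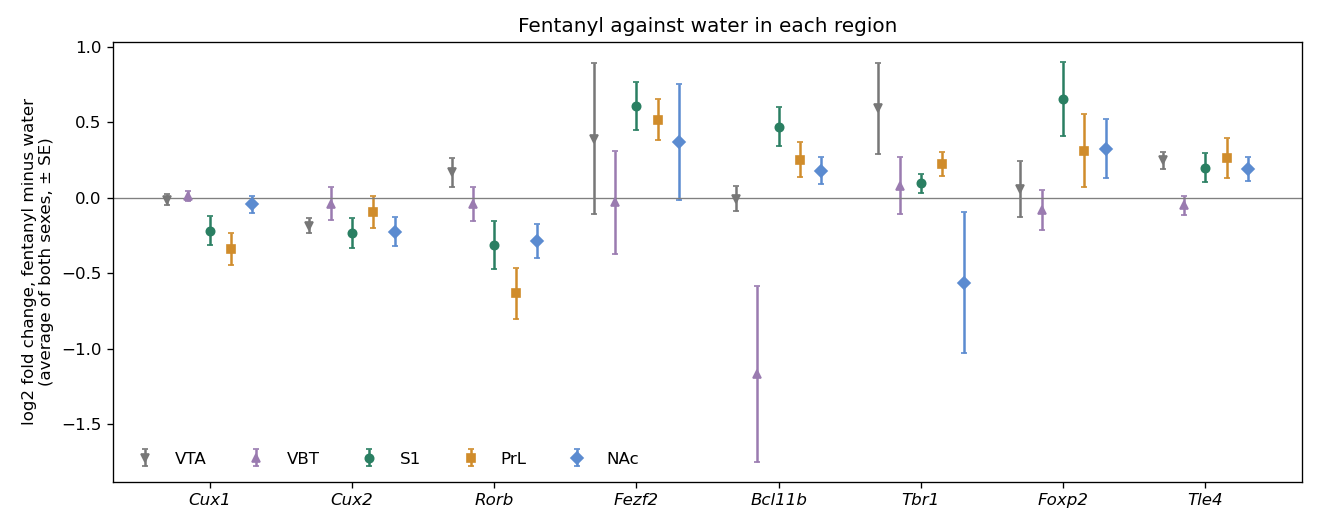
Fentanyl minus water for each gene in the 5 regions. The y axis is the log2 fold change from edgeR averaged over the sexes with bars of 1 SE, and colours and symbols mark regions. Fezf2 lies above 0 in all regions but VBT and Rorb below 0 in all but VTA, and Bcl11b in VBT has the longest bar.

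For each member the genes with the most similar levels were sought by Pearson's r over the 20 group means of log2(CPM + 1), among 13617 genes with a mean of at least 1 CPM. This is a description over groups that share regions. Cux1 was closest to Cracr2a (0.964) and Ppp4r1 (0.946), Cux2 to Osbpl1a (0.970) and Nrn1 (0.964), and Rorb to Tspan11 (0.971) and Cdk16 (0.955). Fezf2 was closest to Cckbr (0.990), a cholecystokinin receptor, and Sult2b1 (0.990), and Bcl11b to Cap1 (0.990) and Pdyn (0.988), the prodynorphin gene. Tbr1 was closest to Dtl (0.996) and Ephx4 (0.992), Foxp2 to Pptc7 (0.981) and Syndig1l (0.972), and Tle4 to Stk26 (0.980) and St8sia3 (0.980).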

How the data were processed

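Tissue punches of 5 brain regions gave 99 RNA-seq libraries (SMART-Seq v4 kit). The authors deposited raw read counts per Ensembl gene, 1 table per library. Per the submitters' processing notes, HTSeq and GRCm38 were used, while the aligner, strand setting and annotation release are not given in the sources used here. The 5 summary lines of each table were left out of totals, and reads outside exons were 9.99 to 18.03% of each library.

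Symbols, positions and exon lengths came from GENCODE M21, which held 55154 of 55335 IDs. Counts of 98 libraries were fitted with edgeR 4.0.16 (R 4.3.3, limma 3.58.1; TMM, filterByExpr, robust quasi-likelihood test, Benjamini-Hochberg over all genes tested, threshold 0.05). Each region was fitted alone for fentanyl against water, S1 with PrL for the areas, and all 20 groups for region levels. DESeq2 1.42.0, other size factors, filters, covariates, GC or length offsets, the replicate block and left-out libraries were alternatives. No label states that same-numbered samples came from the same animal, so numbers were not taken to pair samples. Of 19 correlations between same-numbered samples of S1 and PrL (-0.215 to 0.354), 13 were over 0.1 and 10 were highest with the same number. Between fentanyl and water samples of a region, 0 to 4 of 9 or 10 were highest with the same number. The data do not settle whether animals were shared. Correlations and CPM were computed in Python 3.11.15 (pandas 2.3.3, scipy 1.17.1, numpy 2.4.6). Simulated data with known changes served to test the edgeR script.

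All 8 members are named. From each companion list, the 2 called genes with the smallest p in each direction between S1 and PrL in water are named, and for each member the 2 protein-coding genes most like it over the group means. Members and lists were chosen with earlier results of these data known.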

Additional observations from a re-analysis of the deposited data

Results flagged for a closer look

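Of 160 sets of member and group, 10 held a library whose gap to its nearest neighbour exceeded Dixon's 95% critical value for the group's size, and chance gives about 1 in 20, or 8. In PrL females exposed to water, replicate 5 stood apart for Foxp2 (21.85 CPM, the others 7.322 to 10.15) and for Tle4 (66.8 CPM, the others 38.13 to 42.16). In PrL females exposed to fentanyl, replicate 1 stood apart for Tle4 (90.73 CPM, the others 51.88 to 62.38). These 2 libraries had the highest sums of layer 6 and 6b genes in PrL, 274.6 and 394.7 CPM against a median of 168.7.

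In S1, female fentanyl 2 stood apart for Tbr1 (168.7 CPM, the others 131.7 to 139.5) and male fentanyl 2 for Foxp2 (24.83 CPM, the others 11.64 to 15.24). In VBT, male water 3 stood apart for Bcl11b (74.65 CPM, the others 3.211 to 12.27) and female fentanyl 5 for Tbr1 (1.594 CPM, the others 1.225 to 1.291). In VTA, female fentanyl 3 stood apart for Cux1 (99.22 CPM, the others 87.93 to 90.71) and Rorb (35.64 CPM, the others 22.42 to 26.12), and it had the highest sum of cortical excitatory genes in VTA, 175.4 CPM. In NAc, female water 3 stood below the others for Rorb (24.9 CPM, the others 36.19 to 39.75). It had the lowest sum of cortical excitatory genes in its group, 232.1 CPM, and the highest sum of striatal genes, 3014 CPM.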

How the results depend on the processing

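Of the values of single members, 558 of those under another setting kept their direction and their side of the threshold, 8 passed anew, 14 no longer passed and 6 changed sign. Of the values with 1 library or replicate left out, 1768 kept both, 6 passed anew, 12 no longer passed and 12 changed sign. The cause of these changes was not tested. Between S1 and PrL, Cux1, Cux2, Rorb, Fezf2 and Bcl11b kept direction and call under every alternative and every left-out library, in both treatments.

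Members called for fentanyl against water numbered 2 in S1 and 3 in PrL by DESeq2, 1 in PrL with GC offsets, and 0 to 1 in either area with 1 library left out. In the VTA average they numbered 1 with GC offsets and 0 with all 20 libraries, and in VTA males 0 and 0. Signs changed for VTA minus NAc Rorb with all 99 libraries (0.15), S1 minus PrL Foxp2 in water without PrL female water 5 and male water 3 (0.16) and in fentanyl with the share of reads outside exons as a covariate (-0.1686), the treatment difference of S1 minus PrL for Cux1 without those 2 libraries (-0.0372), PrL Tbr1 with the covariate (-0.0345) and VTA female Cux2 with GC offsets (0.0428).

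With 1 replicate left out of all groups, VBT minus PrL Cux2 was -0.23 to 0.0018, VBT minus S1 Rorb -0.23 to 0.0557 and S1 minus PrL Foxp2 -0.26 to 0.14. With 1 library left out, S1 minus PrL in water was -0.22 to 0.0912 for Foxp2, and in fentanyl -0.0171 to 0.0694 for Tbr1. The treatment difference of S1 minus PrL was -0.15 to 0.0122 for Tle4, PrL male Tle4 was -0.10 to 0.18 and VTA female Cux2 -0.0648 to 0.0076.

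Counts of all genes called moved more. The S1 average called 203 genes (41 with the covariate, 645 by DESeq2), the PrL average 133 (0 and 778), the VTA average 4580 (60 with all 20 libraries), VTA males 4355 (42), S1 minus PrL in fentanyl 9046 (4755 with the covariate), NAc males 129 (924 by DESeq2), S1 females 28 (0 with the covariate, 402 by DESeq2), PrL females 4 (0 with the replicate block, 46 by DESeq2) and the treatment difference of S1 minus PrL 1 (0 with the block, 116 by DESeq2). Contrasts with 0 calls reached 285 in the NAc average and 139 in VTA females with the covariate, and by DESeq2 462 between the sexes in NAc, 109 between the sexes in VBT, 52 in VBT males, 31 in VBT females, 28 in PrL males, 16 in NAc females, 7 between the sexes in VTA and 1 in the VBT average. With 1 library left out, the S1 average called 30 (without male water 4) to 502 (without male fentanyl 5), the PrL average 38 (without female water 5) to 289 (without female water 1), VTA males 2659 (without male water 4) to 4664, and NAc males 0 (without male water 3) to 813 (without male fentanyl 5). S1 females called 0 (without female fentanyl 1, among others) to 220 (without male fentanyl 5), and the treatment difference of S1 minus PrL 0 to 161 and S1 males 0 to 30 (both highest without S1 male fentanyl 5). Other contrasts with 0 calls rose to 449 between the sexes in NAc (without female water 3), 55 in the NAc average (without male fentanyl 5), 24 in VBT males (without male fentanyl 3) and 18 between the sexes in VBT (without male water 2), and to at most 2 elsewhere. PrL females called 0 to 7. Of 19 same-numbered S1 and PrL pairs, 13 correlated over 0.1 (median 0.196) and 10 correlated best with their own number, a hint from the data and not the design. With the replicate block, 5 members were called between S1 and PrL in each treatment, S1 Fezf2 was 0.57 (adjusted p = 0.0824, edgeR) and NAc males gave 2 genes. Depth allowed each member to be tested in each region, but Fezf2 and Tbr1 in VTA and VBT rest on few counts.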
